A study of Mus musculus with 26 samples.

Results

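The 9 genes described here, *Acta2*, *Tagln*, *Myh11*, *Cnn1*, *Myl9*, *Lmod1*, *Des*, *Tpm2* and *Actg2*, encode the contractile apparatus of smooth muscle. They were chosen by name, and all 9 had a row among the 16426 genes of the single-cell tables and among the 17623 genes of the bulk tables. Their level was followed in scRNAseq of dissociated RPE/choroid (the retinal pigment epithelium and the vascular layer beneath it), in RPE/choroid tissue after endothelial deletion of *Ihh*, and in cultured GLI1+ choroidal cells. The single cells came from 3-month-old mice with no deletion or treatment, in 1 library of B6129PF1/J and 1 of C57BL/6J, each pooled from an eye of a male and an eye of a female. Tissue was taken at 6 months of age from C57BL/6J mice, 3 libraries of *Ihh*+/+ and 3 of *Ihh* iΔEC/iΔEC. Both genotypes carried the tamoxifen-inducible *Cdh5*-CreERT2 transgene, which acts in endothelial cells (ECs) of every organ, and both received tamoxifen 12 weeks before. The cultured cells were sorted by GFP from choroid of *Gli1*GFP/+ mice, expanded in dishes, and given the Hedgehog pathway agonist SAG at 100 nM or its vehicle DMSO for 24 h, with 3 libraries per group. The strain label of these mice is SWR/J, and by the study's methods the line had been crossed to BALB/c to remove a retinal degeneration allele.

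Smooth muscle contracts when myosin II, built from the heavy chain MYH11 and regulatory light chains such as MYL9, pulls on filaments of α-actin (ACTA2) and γ-actin (ACTG2). Tropomyosin (TPM2), calponin (CNN1) and transgelin (TAGLN, also SM22α) lie along these filaments, leiomodin (LMOD1) seeds them, and desmin (DES) forms the intermediate filaments that tie the apparatus together. Transcription of most of these genes depends on serum response factor (SRF) and its coactivator myocardin, which act through a short AT-rich sequence called the CArG box. In the choroid, arterioles are wrapped by smooth muscle and the choriocapillaris by pericytes, and both cell types contain actin and myosin.

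Since most of these genes are known to depend on the CArG box, their promoters were searched for it. The box is CC, then 6 bases that are A or T, then GG, and which reads alike on both strands. RefSeq windows of 300 bases around the transcription start (250 upstream, GRCm38.p6) were found for 6 of the 9 genes, all but *Tagln*, *Myh11* and *Actg2*. The box was present letter for letter in *Myl9*, 161 bases upstream of the start, and with at most 1 base off in *Acta2*, *Myl9* and *Lmod1*. Of all 32851 windows, 1.63% held an exact box and 21.1% a box with at most 1 base off, so the looser match is common. The windows of *Cnn1*, *Des* and *Tpm2* held neither, which says only that these letters are absent from those bases. The sequences with a box are printed 5′ to 3′ on the strand of the gene, with the box in capitals. For *Acta2*, where the GENCODE annotation has an exon over the RefSeq window, only each box and its flanks is given (chr19:34255438-34255467 and chr19:34255388-34255417, minus strand). *Myl9* (chr2:156775214-156775419, plus strand) and *Lmod1* (chr1:135324563-135324806, plus strand) are given up to the first annotated exon.
Acta2, box starting at -84: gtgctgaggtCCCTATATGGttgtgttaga
Acta2, box starting at -34: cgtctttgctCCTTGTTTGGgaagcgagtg
Myl9: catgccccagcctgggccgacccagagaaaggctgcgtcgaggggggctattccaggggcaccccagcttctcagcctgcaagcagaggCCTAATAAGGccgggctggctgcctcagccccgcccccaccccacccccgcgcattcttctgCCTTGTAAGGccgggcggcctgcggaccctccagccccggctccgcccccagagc
Lmod1: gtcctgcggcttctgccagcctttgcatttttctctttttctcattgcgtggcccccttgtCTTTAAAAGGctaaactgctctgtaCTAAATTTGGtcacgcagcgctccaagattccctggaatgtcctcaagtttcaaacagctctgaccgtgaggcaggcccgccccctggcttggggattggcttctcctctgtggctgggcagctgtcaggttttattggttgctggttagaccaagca

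The single-cell libraries held 3637 cells and 17168578 unique molecular identifiers (UMIs, 1 per captured transcript) for B6129PF1/J, and 3928 cells and 15230413 UMIs for C57BL/6J. The authors' 13 clusters were used as deposited. Among them they named smooth muscle cells (cluster 9, 373 and 463 cells), stromal cells (cluster 6 among others, 541 and 603 cells) and RPE (cluster 1, 407 and 374 cells). The paper lists somewhat more cells in each of these clusters, so the deposited assignment differs from the published one. In this order of libraries, which is kept throughout, the median cell had 4635 and 3803 UMIs in cluster 9, 3595 and 2870 in cluster 6, and 5263 and 3406.5 in cluster 1. A level is the gene's UMIs per 10,000 UMIs of a cluster, with an exact Poisson 95% interval where given. Intervals here cover counting error only, since each strain had 1 library, and no test between clusters or strains was possible. Clusters were built from the same counts as the levels, so differences between them describe the clusters and do not test them. The libraries shared 22 cell barcodes, of which 0 lay in cluster 9 of both. Of cells holding UMIs of both the female transcript *Xist* and the Y-linked *Ddx3y*, 3 and 2 lay in cluster 9 and 5 and 6 in cluster 6. Such counts miss doublets of cells of the same sex and those in which either transcript was not captured.

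The label of cluster 9 was checked against marker lists. Summed markers of fibroblasts had a level of 2.08 and 1.98 there, against 89.2 and 87.9 in stromal cluster 5, and those of striated muscle 0.0451 and 0.0279, with 5 of 7 measured markers at 0 in each library. The list of 7 pericyte markers had a summed level of 98.3 and 104 in cluster 9 and of 120.2 and 116 in cluster 6. Most of this was *Rgs5*, a regulator of G protein signaling found in mural cells, at 92.4 and 99.3 in cluster 9 and 95.9 and 93.0 in cluster 6. *Pdgfrb*, the PDGF receptor of pericytes and fibroblasts, was at 2.61 and 1.94 against 6.90 and 5.90, and *Higd1b* at 1.85 and 1.89 against 2.77 and 4.16. *Cspg4* (the NG2 proteoglycan) was at 0.907 and 0.586 in cluster 9 against 0.539 and 0.468 in cluster 6. The other 3 markers, named after their values were seen, were far lower in cluster 9: *Vtn* (vitronectin) was at 0.197 and 0.223 against 9.86 and 7.94 in cluster 6. *Kcnj8*, a potassium channel subunit of pericytes, was at 0.203 and 0.301 against 2.81 and 3.76, and *Abcc9*, the channel's regulatory subunit, at 0.0901 and 0.0670 against 1.36 and 1.22. Of the pericyte list, 6 and 5 genes were highest in cluster 6 of all clusters, a count for which no share over all genes was computed.

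Cluster 9 held most of the smooth muscle transcripts. B6129PF1/J had 75012 UMIs of the 9 genes, 58405 of them there, 77.9% (77.6 to 78.2%), and C57BL/6J had 74157, 60258 of them there, 81.3% (81.0 to 81.5%), although the cluster held only 10.3% and 11.8% of all UMIs. Cluster 6 held a further 13.98% and 10.5%, and RPE 1.43% and 1.21%. In B6129PF1/J, 8 of the 9 genes were highest in cluster 9 of the 13 clusters, all but *Des*, where 5.48% of 11590 genes were. In C57BL/6J, 9 of 9 were, against 5.58% of 11392 genes. The plot of levels in the 13 clusters shows this peak for all but *Des*.

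**Figure D1:**
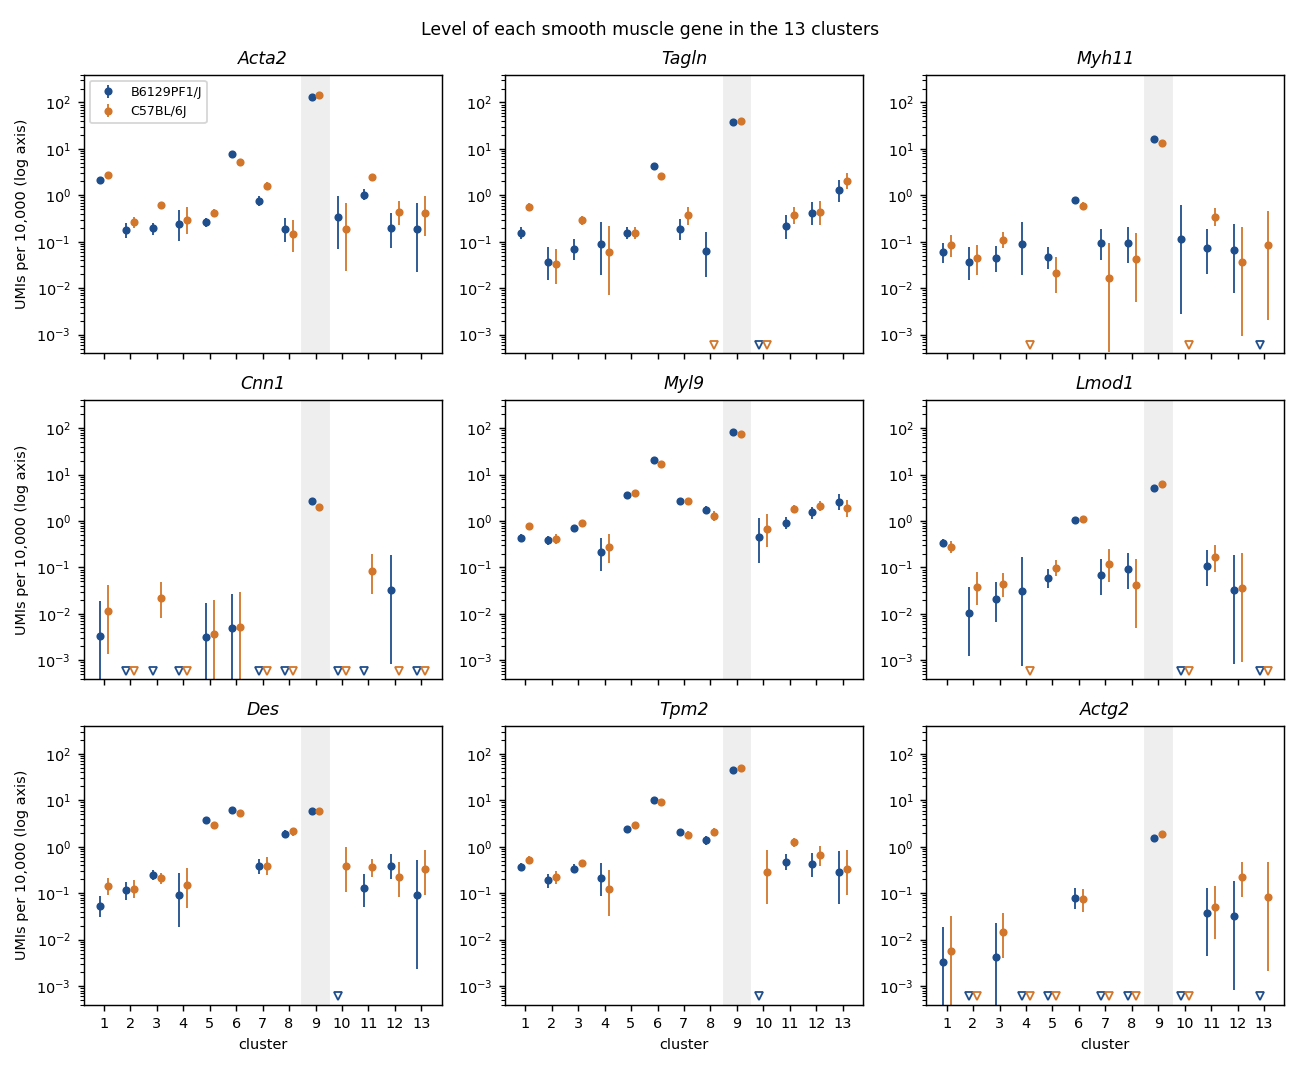
UMIs per 10,000 (log axis) of each of the 9 genes in the 13 clusters, in B6129PF1/J (blue) and C57BL/6J (orange), with exact Poisson 95% intervals as bars and open triangles where a cluster had 0 UMIs. In the shaded cluster 9, *Acta2* reached 132 and 142, while *Des* was about level between clusters 9 and 6.

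Among the actins, *Acta2* (chr19:34241090-34255590, GRCm38) had a level of 132 (131 to 134) and 142 (140.3 to 144) in cluster 9. It was at 7.88 (7.50 to 8.27) and 5.18 (4.86 to 5.51) in cluster 6, which came next, and then at 2.16 (2.00 to 2.33) and 2.75 (2.51 to 3.00) in RPE. Hematopoietic cluster 11 followed with 1.04 (0.789 to 1.35) and 2.46 (2.08 to 2.88). Its *Acta2* UMIs lay in only 15 of 106 and 14 of 127 cells, against 251 of 407 and 191 of 374 in RPE. In C57BL/6J the intervals of RPE and cluster 11 overlapped, so their order is not resolved. *Actg2* (chr6:83512905-83536265), best known from visceral muscle, was at 1.57 (1.39 to 1.77) and 1.91 (1.71 to 2.12) in cluster 9 and at 0.0783 and 0.0736 in cluster 6. Its 279 and 342 UMIs in cluster 9 were 93.0% and 92.2% of its UMIs in the libraries. *Acta2*, *Actg2* and the striated α-actins encode nearly the same protein, and how reads from shared coding sequence were assigned was not checked.

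Of the myosin subunits, the heavy chain *Myh11* (chr16:14194535-14291372) had 2945 and 2354 UMIs in cluster 9, levels of 16.6 and 13.1, and was at 0.798 and 0.605 in cluster 6. All other clusters were at or below 0.346. The light chain *Myl9* (chr2:156775420-156781658) was at 81.0 (79.7 to 82.3) and 75.9 (74.6 to 77.2) in cluster 9, but still at 20.9 (20.3 to 21.6) and 17.2 (16.6 to 17.8) in cluster 6 and 3.57 and 3.95 in stromal cluster 5. Thus *Myh11* was 20.8 (17.8 to 24.5) and 21.7 times as high in cluster 9 as in cluster 6, and *Myl9* 3.87 and 4.43 times. *Myl9* shares much of its sequence with *Myl12a* and *Myl12b*, and how reads from shared sequence were assigned was not checked.

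Some genes of the thin filament were nearly limited to cluster 9, and others were shared with cluster 6. *Cnn1* (chr9:22099216-22109630) had 481 and 364 UMIs in cluster 9, levels of 2.71 (2.47 to 2.96) and 2.03 (1.83 to 2.25), and 1 UMI in cluster 6 of each library. The ratio between these clusters was 554 (98.9 to 21909.5) and 386 (68.9 to 15290.4), a range set by the single UMI. *Tagln* (chr9:45929619-45936058) was at 38.9 (38.0 to 39.8) and 39.0 (38.1 to 39.9) in cluster 9 and at 4.28 and 2.64 in cluster 6 (874 and 502 UMIs). Next came Schwann cell cluster 13, at 1.30 and 2.09 from 14 and 25 UMIs of *Tagln*, which lay in 10 of 30 and 15 of 46 cells. *Tpm2* (chr4:43514711-43523765) was at 45.0 (44.05 to 46.0) and 49.9 (48.9 to 51.0) in cluster 9, against 10.2 and 9.06 in cluster 6. *Lmod1* (chr1:135324807-135368065) was at 5.05 (4.72 to 5.39) and 6.43 (6.06 to 6.81) in cluster 9, 1.07 and 1.11 in cluster 6, and 0.340 (0.277 to 0.413) and 0.280 (0.207 to 0.371) in RPE.

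A level at least 10 times as high in cluster 9 as in cluster 6 was found for 4 genes in B6129PF1/J (*Acta2*, *Myh11*, *Cnn1* and *Actg2*), where 1.36% of 7053 genes passed. *Tagln* stood just below, at 9.08 (8.47 to 9.76). In C57BL/6J, 5 genes passed, these and *Tagln* at 14.8, where 1.17% of 6979 genes did. *Tpm2* had ratios of 4.41 and 5.51 and *Lmod1* of 4.73 and 5.79. The share of each gene's UMIs that lay in cluster 9 ran in the same direction, from 99.2% and 96.0% for *Cnn1*, through 92.5% and 92.2% for *Myh11*, 90.1% and 92.5% for *Acta2* and 86.7% and 89.6% for *Tagln*, to 69.7% and 72.2% for *Myl9*.

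Desmin was the exception. *Des* (chr1:75360329-75368579) was at 5.78 (5.43 to 6.15) and 5.84 (5.49 to 6.20) in cluster 9 and at 6.11 (5.78 to 6.46) and 5.26 (4.93 to 5.59) in cluster 6. The ratio of cluster 9 to cluster 6 was 0.945 (0.870 to 1.03) in B6129PF1/J, an interval that includes 1, and 1.11 (1.02 to 1.21) in C57BL/6J. Stromal clusters 5 and 8 came next, with 3.70 and 2.95 and with 1.88 and 2.14. Only 27.6% and 33.4% of *Des* UMIs lay in cluster 9, against 33.5% and 31.9% in cluster 6.

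The share of cells with a UMI was taken after each cell was thinned at random to 1700 UMIs, so that deep and shallow cells could be set side by side. *Acta2* was then detected in 98.4% (96.5 to 99.4%) and 98.9% (97.5 to 99.6%) of cells in cluster 9, *Myl9* in 99.7% and 99.1%, *Tpm2* in 98.1% and 99.1%, and *Tagln* in 92.2% and 93.7%. *Myh11* was found in 81.0% and 81.2% of these cells, *Des* in 56.3% and 60.9%, *Lmod1* in 55.2% and 62.4%, *Cnn1* in 24.9% and 19.01%, and *Actg2* in 13.4% and 19.2%. In cluster 6 the genes split: *Myl9* was detected in 85.0% and 83.9% of cells, *Tpm2* in 70.2% and 70.6% and *Des* in 63.6% and 54.2%, but *Acta2* in 26.99% and 24.4%, *Tagln* in 23.7% and 13.8% and *Myh11* in 8.87% and 9.62%. *Lmod1* had a UMI in 13.3% and 16.9% of thinned cells of cluster 6, *Actg2* in 0.739% and 1.16%, and *Cnn1* in 0 of 541 and 0 of 603.

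**Figure D2:**
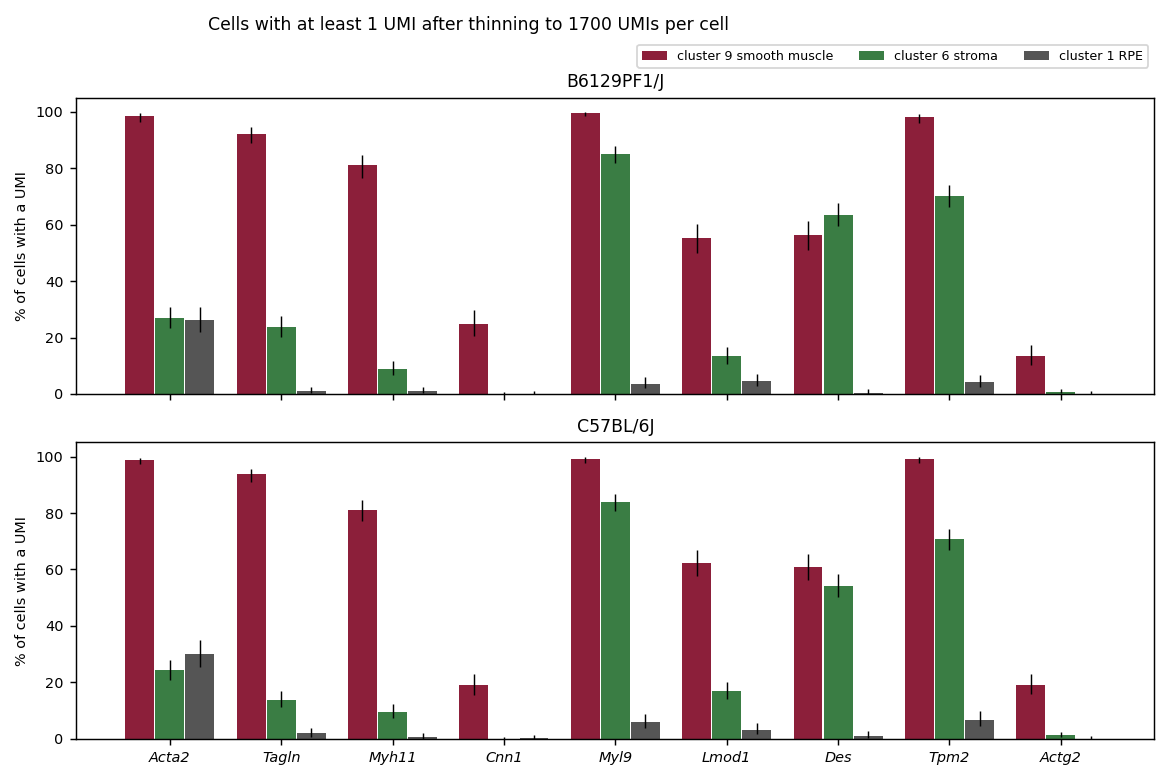
Percent of cells with at least 1 UMI of each gene after thinning to 1700 UMIs per cell, in cluster 9 (red), cluster 6 (green) and RPE cluster 1 (grey), for each library, with exact Clopper-Pearson 95% intervals. *Myl9*, *Tpm2* and *Des* were detected in most cells of clusters 9 and 6, whereas *Acta2* was detected in 98.4% and 98.9% of cluster 9 and in 26.99% and 24.4% of cluster 6.

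RPE cells served as the type that should lack the contractile genes. Most genes were near absent there: in thinned RPE cells *Tagln* had a UMI in 0.983% and 1.87%, *Myh11* in 0.983% and 0.535%, *Des* in 0.491% and 1.07% and *Myl9* in 3.69% and 5.88%. *Acta2* was not, with a UMI in 26.3% (22.1 to 30.9%) and 29.9% (25.3 to 34.9%) of thinned RPE cells, and in 61.7% and 51.1% before thinning. In the ECs of cluster 2, at a median of 4232.5 and 3460 UMIs per cell, *Acta2* had a UMI in 2.70% (1.30 to 4.91%) and 4.47% (2.67 to 6.97%) of thinned cells. The *Acta2* share in RPE was close to that in cluster 6, although its level in RPE was lower. *Lmod1* was also higher in RPE than in these ECs. Its level was 32.4 (8.74 to 271) and 7.31 (3.29 to 19.1) times that of cluster 2, which had 2 and 7 UMIs. Before thinning, *Lmod1* had a UMI in 81 of 407 RPE cells of B6129PF1/J. Between genes, the summed UMI counts of RPE differed in proportion from those of cluster 9. There were 14.1 (10.4 to 19.4) and 4.80 (3.86 to 6.02) *Acta2* UMIs per *Tagln* UMI in RPE. This compares with 3.41 and 3.65 in cluster 9 and 1.84 and 1.96 in cluster 6. The *Tagln* UMIs of RPE, 46 and 100, lay in only 9 of 407 and 8 of 374 cells. The intervals treat UMIs as independent, so they understate the uncertainty of this ratio. *Acta2* UMIs per *Lmod1* UMI went the other way, with 6.35 and 9.80 in RPE and 26.2 and 22.1 in cluster 9. Whether these UMIs were made in RPE cells was not tested.

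Cells of cluster 9 differed widely in their UMIs of the 9 genes, and whether they form subsets was not tested. The summed UMIs of the 9 genes per thinned cell had a median of 53 and 55, with the middle 80% of cells between 18 and 90 and between 21 and 86, and extremes of 2 to 185 and 2 to 172. In cluster 6 the median was 6 and 5 (0 to 56 and 0 to 67), and in RPE 0 and 0. Cells of cluster 9 most often had a UMI of 6 of the 9 genes in B6129PF1/J (123 cells, 33.0%) and of 7 in C57BL/6J (147 cells, 31.7%), and 10 and 13 cells had all 9. The cumulative plot of summed UMIs shows the distance between the clusters and the overlap of their tails.

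**Figure D3:**
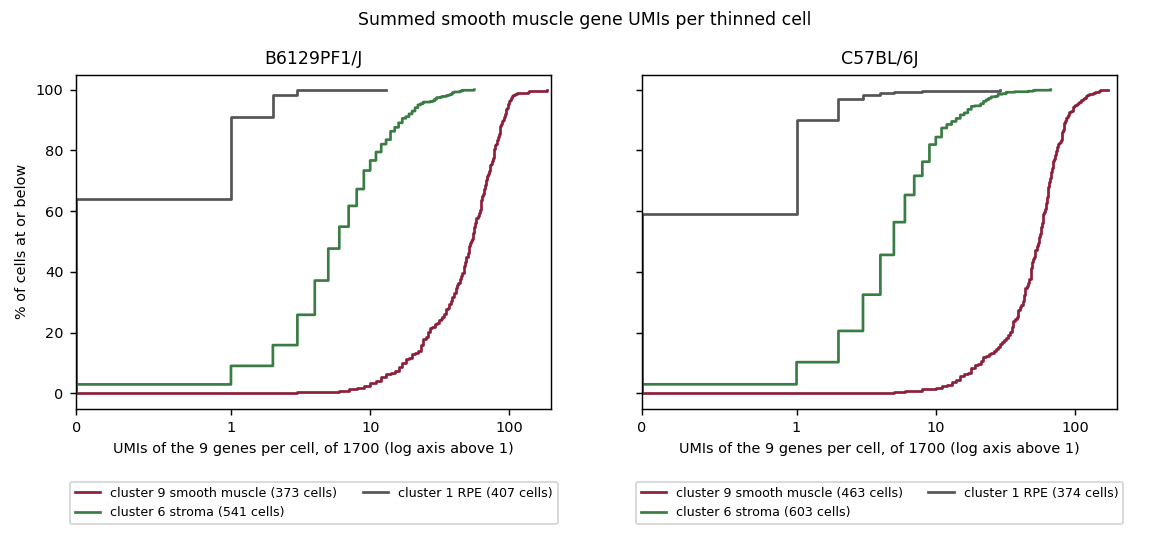
Percent of cells (vertical axis) with at most the given number of UMIs of the 9 genes out of 1700 (horizontal axis, log above 1), for clusters 9, 6 and 1 of each library. Median cells had 53 and 55 UMIs in cluster 9, 6 and 5 in cluster 6, and 0 in RPE.

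Cell-to-cell correlations over the 373 and 463 thinned cells of cluster 9 are given as a description, since the cells of a library share its preparation and low counts weaken any correlation. *Acta2* varied most closely with *Myl9* (Pearson's r = 0.738 and 0.693), *Tpm2* (0.619 and 0.635) and *Tagln* (0.536 and 0.573). *Tagln* and *Cnn1* went together at 0.652 and 0.528, and *Tagln* and *Actg2* at 0.618 and 0.436. *Cnn1* and *Actg2* had an r of 0.657 and 0.275. In the former library 1 cell held 17 *Cnn1* and 11 *Actg2* UMIs of 1700, and without it r was 0.468. The correlations of *Tagln* with *Cnn1* and *Actg2* include the same cell and were not recomputed without it. *Myh11* went with *Acta2* at 0.410 and 0.245 but with *Cnn1* only at 0.192 and 0.110. *Des* showed almost no correlation with the other 8 genes, from -0.044 to 0.075 over both libraries.

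In cluster 6 the transcripts of *Acta2*, *Tagln*, *Myh11* and *Cnn1* were concentrated in few cells. The 10% of cells with most of these UMIs held 66.6% and 75.5% of them, against 20.4% and 20.6% in cluster 9. At least 10 of 1700 UMIs came from the 4 genes in 33 (6.10%) and 23 (3.81%) cells of cluster 6, and in 328 (87.9%) and 425 (91.8%) cells of cluster 9. The limit of 10, and the genes *Vtn*, *Kcnj8*, *Pln* and *Mylk* in the following comparison, were chosen after values were seen. *Rgs5*, which had similar levels in clusters 9 and 6, was at 109.8 and 109 per 10,000 in the high cells of cluster 6. It was at 82.4 and 80.0 in the 335 and 405 cells with 0 UMIs of the 4 genes. *Vtn* was higher in the high cells, at 11.5 and 13.6 against 9.35 and 7.35. *Kcnj8* was lower, at 2.07 and 3.70 against 2.90 and 3.97. The other pericyte markers of the list were not compared in the high cells. *Pln* (phospholamban), at 7.17 and 4.10 in cluster 9, had 0 UMIs in these cells of B6129PF1/J, which allows a level of up to 0.200, and 1 UMI in those of C57BL/6J, a level of 0.123. *Mylk* (myosin light chain kinase), at 20.5 and 17.6 in cluster 9, was at 5.60 and 4.20 in these cells, against 2.99 and 2.64 in the cells with 0 UMIs of the 4 genes. Of the high cells 1 and 0 had UMIs of both *Xist* and *Ddx3y*, and their median depth was 4138 and 2974 UMIs. Since that count misses many doublets, whether the high cells were doublets was not tested.

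For 8 of the genes, the smooth muscle form was set against the forms that other cells use. The muscle form is given as a percent of the UMIs of the group. In cluster 9 it made up 97.6% and 97.9% of *Tagln* plus *Tagln2*, 96.4% and 95.7% of *Myh11* plus *Myh9* and *Myh10*, 93.9% and 92.0% of *Myl9* plus *Myl12a* and *Myl12b*, and 94.5% and 94.4% of *Tpm2* plus *Tpm3* and *Tpm4*. *Lmod1* made up 91.8% and 93.0% of its sum with *Tmod3*, and *Acta2* 64.3% and 59.3% of its sum with the cytoplasmic actins *Actb* and *Actg1*. Calponin and desmin stood apart, since *Cnn1* was only 26.7% and 18.1% of the calponins, with *Cnn3* at 5.05 and 6.19 per 10,000 in cluster 9, and *Des* 19.9% and 21.8% of *Des* plus *Vim*.

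In cluster 6 the muscle share was lower for 7 of these 8, at 14.9% and 8.99% for *Acta2*, 31.3% and 22.4% for *Myh11*, 50.2% and 39.9% for *Tagln*, 56.7% and 53.5% for *Myl9*, 66.4% and 59.97% for *Tpm2*, 55.2% and 49.2% for *Lmod1* and 0.0579% and 0.0656% for *Cnn1*. *Des* was higher there, at 40.6% and 45.3%. RPE had few UMIs of some groups, yet its muscle share was 82.9% and 75.4% for *Lmod1* and 62.2% and 82.6% for *Tagln*, above cluster 6. For *Tpm2* it was 53.4% and 50.8%. Each of these shares was lower in RPE than in cluster 9. The *Tagln* UMIs of RPE lay in only 9 of 407 and 8 of 374 cells. Of the 13 nonmuscle relatives, 1 and 2 were highest in cluster 9, where 5.48% and 5.58% of all genes with at least 50 UMIs were. They were *Actb* (61.5 and 85.6 per 10,000) in both libraries and *Cnn2* (3.02, named after its value was seen) in C57BL/6J. With 13 genes, such counts cannot be set apart from that share.

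**Figure D4:**
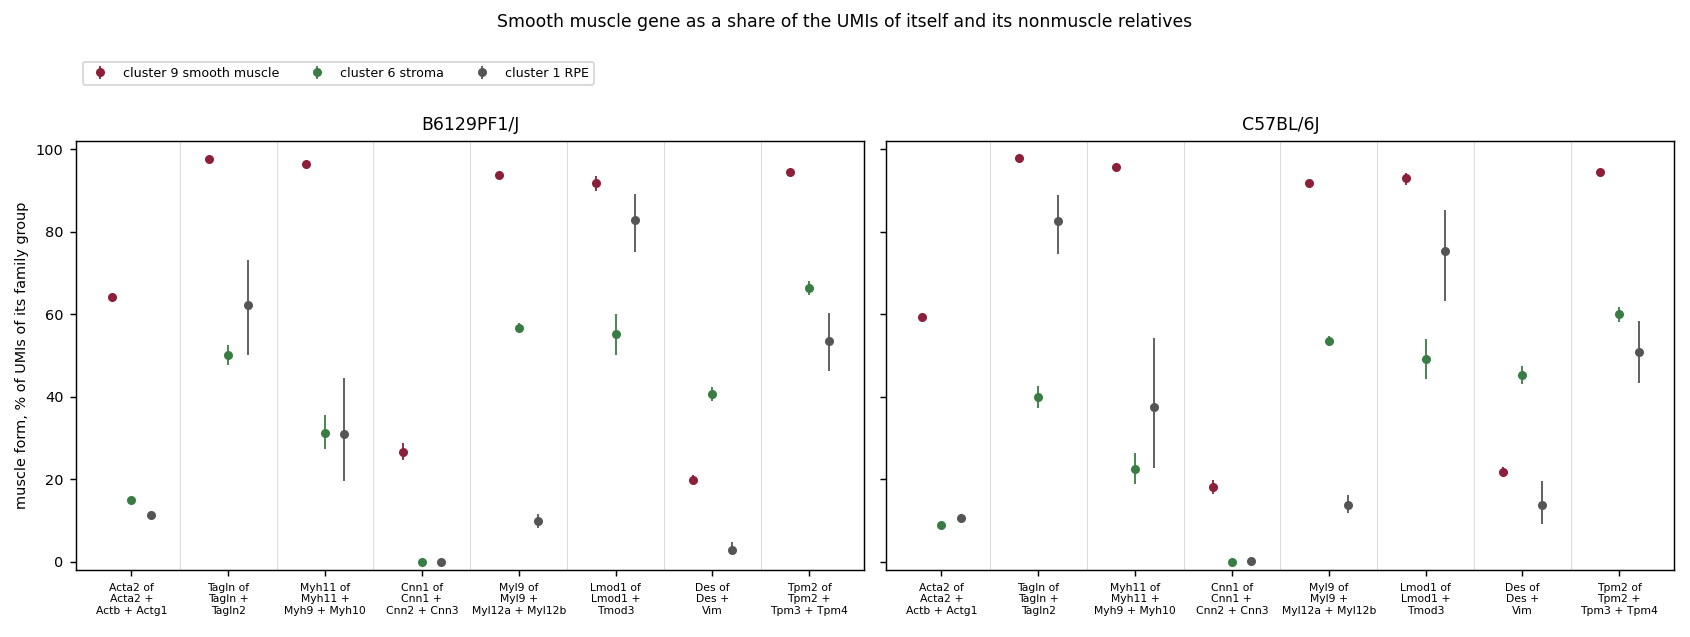
Percent of the UMIs of a gene group that came from the smooth muscle form (vertical axis), in cluster 9 (red), cluster 6 (green) and RPE cluster 1 (grey) of each library, with exact Clopper-Pearson 95% intervals. The muscle form exceeded 90% in cluster 9 for *Tagln*, *Myh11*, *Myl9*, *Lmod1* and *Tpm2*, and *Des* was the group in which cluster 6 lay above cluster 9.

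Most genes of the wider apparatus were also highest in cluster 9. Of 27 further genes of contraction, adhesion and calcium handling, 22 and 24 were highest in cluster 9. Of all genes with at least 50 UMIs, a limit not set for the lists, 5.48% and 5.58% were. The summed level of the 27 genes was 207 and 198 there, against 64.1 and 58.1 in cluster 6 and 17.0 and 17.6 in RPE. At least 10 times as high in cluster 9 as in cluster 6 were 6 and 7 of the 27, where 1.36% and 1.17% of genes with at least 50 UMIs were. The highest were the essential light chain *Myl6* (65.7 and 66.0), tropomyosin *Tpm1* (31.2 and 31.04), the kinase *Mylk* (20.5 and 17.6) and caldesmon *Cald1* (17.5 and 18.0). Of 9 regulators, 3 were highest in cluster 9 in each library, beside the same 5.48% and 5.58% of all genes. *Mef2c*, a transcription factor of muscle and endothelium, was at 8.09 and 7.84 in cluster 9 and 2.35 and 2.11 in cluster 6. *Klf4* (9.08 and 8.14 in cluster 9) was highest in EC cluster 4, while *Notch3* (3.77 and 2.54) and its target *Heyl* (1.41 and 1.13) were highest in cluster 6, at 4.04 and 3.08 and at 3.56 and 3.23. Myocardin itself, *Myocd*, named here for its role although it lies outside the rule for named genes, had 65 and 56 UMIs in cluster 9 and 3 and 1 in cluster 6.

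Across the 13 clusters of both libraries (26 values), the 10 genes whose log2 level followed the summed 9 genes most closely were *Usp2* (r = 0.945), *Rbpms2* (0.939), *Mrvi1* (0.921), *Pde3a* (0.920), *Dhx58os* (0.913), *Gm13861* (0.912), *Aoc3* (0.911), *Cspg4* (0.907), *Susd2* (0.906) and *Gprc5c* (0.905). These values share libraries and cluster depths. *Pde3a*, a cAMP phosphodiesterase, was at 5.44 and 4.11 in cluster 9 and 1.05 and 0.921 in cluster 6, and *Rbpms2*, an RNA-binding protein of smooth muscle, at 3.04 and 3.47 against 0.377 and 0.463. Each of the 9 genes set against the sum of the other 8 gave an r between 0.768 (*Cnn1*) and 0.948 (*Myl9* and *Tpm2*), with *Des* at 0.788.

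Between the strains, levels in cluster 9 lay close together, and with 1 library each, strain and library cannot be told apart. The summed levels were 329 and 336, a ratio of C57BL/6J to B6129PF1/J of 1.02 (1.01 to 1.03). *Lmod1* had the highest ratio of C57BL/6J to B6129PF1/J, 1.27 (1.17 to 1.39), followed by *Actg2* with 1.21 (1.03 to 1.43), and *Cnn1* the lowest, 0.749 (0.652 to 0.861), next to *Myh11* with 0.792 (0.749 to 0.836). All 9 lay within 0.740 to 1.36, the range that held the middle 90% of 3931 genes with at least 50 UMIs in cluster 9 of each library. In cluster 6 the summed level was 51.3 and 41.1, a ratio of 0.8002 (0.777 to 0.824), with *Acta2* at 0.657 (0.606 to 0.712) and *Tagln* at 0.617 (0.552 to 0.690).

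The question of the tissue experiment was whether these genes depend on *Ihh* made by ECs. Expression is the authors' mean FPKM (fragments scaled to transcript length and sequencing depth) over the 3 libraries of a group. The authors' own fold changes and adjusted p-values were not used. Group means without their spread allow no test here, and the depth behind a value is unknown. In bulk tissue, fewer cells of a type and less RNA per cell cannot be told apart. *Ihh* was at 0.454 FPKM in *Ihh* iΔEC/iΔEC and 1.53 in *Ihh*+/+, a ratio of 0.297, and the Hedgehog target *Gli1* at 3.15 and 9.40, a ratio of 0.335. *Ptch1* had a ratio of 0.648 and *Hhip* of 0.329.

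The contractile genes are given in the same order of genotypes. *Acta2* was at 30.6 FPKM in *Ihh* iΔEC/iΔEC and 31.7 in *Ihh*+/+ (ratio 0.964), *Actg2* at 0.500 and 0.659, *Myh11* at 3.47 and 3.75 (0.926), *Myl9* at 33.9 and 37.5 (0.904) and *Cnn1* at 0.623 and 0.622. *Tagln* had the lowest ratio of the genes above 1 FPKM, 0.786, with 16.6 and 21.2 FPKM. *Lmod1* had the highest, 1.54, with 5.93 and 3.86 FPKM, which placed it above 98.1% of the genes at 1 FPKM or more in the higher group. *Tpm2* followed with 30.0 and 24.8 (ratio 1.21) and *Des* with 17.7 and 16.5 (1.07). At 1 FPKM or more in the higher group were 7 of the 9 genes, 3 with a higher and 4 with a lower mean after deletion, where 40.6% of all genes at that limit had a higher one. Their median ratio was 0.964, beside 0.975 over all genes at that limit, and 0 of the 7 differed by 2 times or more, where 1.85% of 11411 genes did. At 1.5 times, 1 did (*Lmod1*), where 4.71% of genes did.

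Markers of other cell types also differed between the genotypes. Of the striated muscle list, 10 of 10 genes above 1 FPKM were higher after deletion (ratios 1.05 to 1.74, median 1.32), and their summed level was 515 against 392 FPKM, with *Ckm* at 79.4 and 57.4. *Des* and *Tpm2* are also expressed by skeletal muscle. All 5 fibroblast markers were lower (median ratio 0.615), as were 3 of 3 melanocyte markers (0.657), while 3 of 3 RPE markers were higher (1.18). Pericyte markers had a median ratio of 0.904, with 2 higher and 4 lower. The part of these in the ratios of *Lmod1*, *Tpm2*, *Des* and *Tagln* was not tested. Of the 27 genes of the wider apparatus, 21 were above 1 FPKM, of which 8 were higher and 13 lower, with a median ratio of 0.980 and none beyond 2 times. The highest ratio was 1.38 for *Ldb3*, a Z-disc gene of striated muscle. *Tagln* overlaps *Pcsk7* and *Des* an antisense gene on the opposite strand, and whether the bulk reads were counted by strand is not given in the sources used here.

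In cultured GLI1+ cells, the question was whether the genes respond when the Hedgehog pathway is switched on. Pathway targets had a higher mean with SAG, *Gli1* at 3.65 FPKM against 0.0280 in DMSO, *Ptch1* at 10.1 against 1.13 and *Hhip* at 1.28 against 0.368. The actins were both expressed in culture and near equal between groups, *Acta2* at 356 FPKM with SAG and 335 with DMSO (ratio 1.07) and *Actg2* at 6.38 and 6.27 (1.02, or 0.974 with median-of-ratios scaling). *Myl9* was at 197 and 199.9 (0.984) and *Myh11* at 0.765 and 0.897, under 1 FPKM. *Tagln* was at 276 and 277 (0.997), *Cnn1* at 6.38 and 6.66 (0.958), *Lmod1* at 5.53 and 5.56 (0.995), and *Tpm2*, with the lowest ratio, at 58.3 and 65.1 (0.896). *Des* was at 0.197 and 0.193 FPKM. At 1 FPKM or more were 7 of the 9, 2 higher (*Acta2* and *Actg2*) and 5 lower with SAG, where 67.9% of all genes at that limit were higher. Their median ratio was 0.995, beside 1.04 over those genes. None of the 7 reached 2 times, where 1.57% of 10325 genes did, or 1.5 times, where 3.84% did. Of the wider apparatus, 21 genes were above 1 FPKM and 1 passed 2 times, the Z-line gene *Pdlim3* at 0.688 against 1.40 FPKM.

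**Figure D5:**
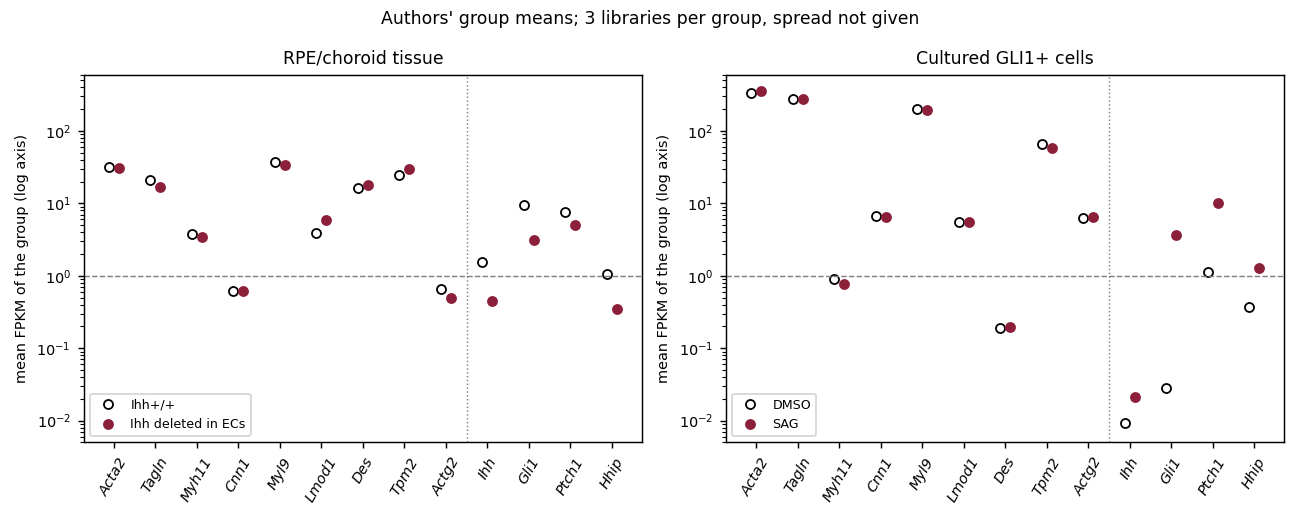
The authors' group mean FPKM (log axis) of the 9 genes and of *Ihh*, *Gli1*, *Ptch1* and *Hhip*, in RPE/choroid tissue of *Ihh*+/+ (open) and *Ihh* iΔEC/iΔEC mice (filled), and in GLI1+ cells with DMSO (open) and SAG (filled), each mean over 3 libraries, with no error bars because the tables give none. The dashed line marks 1 FPKM, and for the 9 genes the means of each pair differ by less than 2 times, whereas *Gli1* differed by a ratio of 0.335 in tissue and 130.5 in culture.

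The genes ranked differently in culture and in tissue. The level of *Acta2* in DMSO was 335 FPKM and that of *Tagln* 277, but *Myh11* was at 0.897 and *Des* at 0.193, with *Rgs5*, abundant in clusters 9 and 6, at 0.321. In tissue, by contrast, *Acta2* and *Tagln* of *Ihh*+/+ mice were at 31.7 and 21.2 FPKM and *Myh11* and *Des* at 3.75 and 16.5. The tables were normalised separately, so only the order of genes within each can be read. FPKM is scaled to transcript length, so genes can be compared on it within a table. Summed fibroblast markers were at 3491 FPKM in the DMSO cells.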

How the data were processed

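Cells of 2 RPE/choroid libraries were profiled with a 3′ single-cell kit, in which UMIs were not scaled to gene length. The authors deposited UMI counts per gene and cell, aligned to mm10 (GRCm38) and filtered in Seurat 2.1, with a table of clusters and cell types, and a natural log average (ln) per gene and cluster, which was used only in an alternative. For bulk libraries the authors deposited group mean FPKM, made with STAR 2.4.0f1 and Cufflinks 2.0.2, together with their own log2 fold changes and adjusted p-values, which were not used. Versions are those of the submitters' processing notes. Single libraries are not in these tables, so the planned limma fit could not be run and ratios of means were used. The genes, the gene lists and the rules were chosen with earlier results of these data known.

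UMIs were summed per cluster, with exact Poisson intervals for levels, exact conditional intervals for ratios and Clopper-Pearson intervals for shares (95%). A count of 0 was taken to allow 3 counts. Thinning to 1700 UMIs left out 0 cells, and doublets were not removed. Named genes were the 9 genes, at most 4 per list (highest in cluster 9, or largest ratio of means), and the 10 genes most like their sum, by Pearson's r of log2(level + 0.1) among genes with at least 50 UMIs in cluster 9 of each library. Analyses used scipy 1.17.1 for intervals, pandas 2.3.3, matplotlib 3.10.9 and numpy 2.4.6 under Python 3.11.15, and were tested on simulated counts. Positions are from GENCODE (GRCm38). Alternatives were thinning, leaving out cells with *Xist* and *Ddx3y*, means over cells, the ln averages, pseudocounts of 0.1 and 1 FPKM, median-of-ratios scaling and 1.5 times in place of 2. The table of choroidal EC genes was not used, as it lists none of the 9 genes.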

Additional observations from a re-analysis of the deposited data

How the results depend on the processing

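The share of the 9 genes' UMIs in cluster 9 moved from 77.9% to 75.3% with thinning and to 78.2% without cells holding *Xist* and *Ddx3y* in B6129PF1/J, and from 81.3% to 79.4% with thinning in C57BL/6J, each by more than its counting interval. In the *Ihh* comparison 1 gene passed 1.5 times and 0 passed 2 times. Of 140 recomputed values, 95 stayed within their interval or limit and 45 moved. Most of those that moved were shares of cells with a UMI: with every UMI of a cell in place of 1700, 39 of 54 shares lay above the thinned interval and 0 were lower. Of 54 bulk ratios, 2 crossed 1, *Des* at 0.977 and *Actg2* at 0.974 with SAG under median-of-ratios scaling. In B6129PF1/J, *Tagln* passed 10 times between clusters 9 and 6 under thinning, means over cells and the authors' averages, which gave 5 genes in place of 4. No paired analysis was possible because the bulk tables hold only group means and each strain has 1 single-cell library. For the same reason no library could be left out, and animal-to-animal variation limits every comparison here by an unknown amount. Levels under about 0.1 per 10,000 rest on few UMIs, and the FPKM tables give no depth.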
